A study of Mus musculus with 6 samples.

Results

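A set of 33 genes of protein folding, quality control and stress sensing in the endoplasmic reticulum (ER) was followed in a mouse cell line exposed to nattokinase, out of 55536 genes listed in each library. The set is defined by gene name and function with no cutoff on measured values. It was chosen, however, with earlier results of these data known. All 33 genes were found by their Ensembl identifiers under GENCODE M21 names. They comprise 10 chaperones and co-chaperones, 2 lectin chaperones, 6 disulfide and proline isomerases, 9 genes of ER-associated degradation, 2 genes of protein entry to and exit from the ER, and 4 genes of stress signalling. The cells were SVEC4-10, an immortalised mouse line labelled as endothelial, kept in serum-containing medium in both groups. One group of 3 libraries was labelled as control at 24 h, and the other group of 3 came from cells exposed for 24 h to nattokinase. Nattokinase is a fibrin-degrading serine protease that Bacillus subtilis secretes during soybean fermentation. The dose and any vehicle given to the control dishes are not given in the sources used here, and all libraries come from 1 cell line. No label ties the replicates to separate cultures, so p-values measure no more than how far these libraries differ among themselves, and that spread may be technical.

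Secreted and membrane proteins fold in the ER, where the Hsp70 chaperone BiP, the Hsp90 family member GRP94, the lectins calnexin and calreticulin and the protein disulfide isomerases act on them. When unfolded protein accumulates, the sensors ATF6, IRE1 and PERK start the unfolded protein response, which slows translation and raises the transcription of chaperone and degradation genes. ATF6, once cleaved, and the factor XBP1, whose mRNA is spliced by IRE1, bind ER stress response elements in the promoters of these genes. Cells that secrete large amounts of matrix, such as collagen producers, carry high levels of this machinery.

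The promoters of several members carry the element through which this response acts, and the matches are shown because the members' expression can then be read against them. The ER stress response element (ERSE) was searched as CCAAT, 9 bases of any kind and CCACG, on both strands, from 250 bases before to 50 bases after the start of each gene in RefSeq's promoter table (GRCm38.p6), which held 29 of the 33 members. Atf6, Hyou1, Manf and Derl1 had no entry in that table. The element was present in 9 of the 29 members (31.0%), whereas 37 of all 27025 genes in the table (0.137%) held it. With 1 mismatch allowed among its fixed letters it was present in 14 of the 29 (48.3%) and in 1.72% of all genes. The members were picked as genes of ER folding and of the response that acts through this element. A higher share among them than among all genes thus follows from the choice and is no test. A match describes letters in this window and is not evidence of binding. The matches follow on the strand on which they read in the searched direction, with the fixed letters in capitals, and Hsp90b1 holds a pair.
Hspa5, chr2:34772025-34772043: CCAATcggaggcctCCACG
Hsp90b1, chr10:86705638-86705656: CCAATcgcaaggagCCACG
Hsp90b1, chr10:86705533-86705551: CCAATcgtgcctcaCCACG
Dnajc3, chr14:118937827-118937845: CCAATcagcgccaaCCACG
Creld2, chr15:88819520-88819538: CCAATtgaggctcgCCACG
Calr, chr8:84847075-84847093: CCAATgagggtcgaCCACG
Canx, chr11:50325800-50325818: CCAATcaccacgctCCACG
Pdia6, chr12:17266491-17266509: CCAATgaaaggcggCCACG
Syvn1, chr19:6046532-6046550: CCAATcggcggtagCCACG
Derl3, chr10:75893242-75893260: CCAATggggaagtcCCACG

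The related element ERSE-II, searched as ATTGG, 1 base of any kind and CCACG, was present in Herpud1 and Dnajb11, 2 of the 29 members, and in 0.0444% of all genes in the table. The XBP1-type element TGACGTGG was present in Sec24d alone among the members and in 0.714% of all genes. The CCAAT/enhancer-binding protein and ATF response element TTGCATCA was present in Herpud1 alone among the members and in 1.03% of all genes. No match of one of these 4 motifs overlapped a match of another in a member.
Herpud1, chr8:94386377-94386387: ATTGGgCCACG
Dnajb11, chr16:22857852-22857862: ATTGGcCCACG

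The 250 bases before the start are shown for Hspa5 and Hsp90b1, the members with the highest levels among the 10 chaperones and co-chaperones, and for Sdf2l1 and Pdia5, which were lower with nattokinase and had an entry in the table. Capitals mark the fixed letters of each ERSE match on either strand, and the sequences run 5′ to 3′ on the gene's strand. The Sdf2l1 and Pdia5 windows held no full ERSE match.
Hspa5, chr2:34771840-34772089, plus strand: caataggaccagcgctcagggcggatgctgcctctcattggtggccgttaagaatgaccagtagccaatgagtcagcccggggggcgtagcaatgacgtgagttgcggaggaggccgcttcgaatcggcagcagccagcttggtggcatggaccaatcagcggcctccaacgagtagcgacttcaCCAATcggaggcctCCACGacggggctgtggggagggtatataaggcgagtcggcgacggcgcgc
Hsp90b1, chr10:86705445-86705694, minus strand: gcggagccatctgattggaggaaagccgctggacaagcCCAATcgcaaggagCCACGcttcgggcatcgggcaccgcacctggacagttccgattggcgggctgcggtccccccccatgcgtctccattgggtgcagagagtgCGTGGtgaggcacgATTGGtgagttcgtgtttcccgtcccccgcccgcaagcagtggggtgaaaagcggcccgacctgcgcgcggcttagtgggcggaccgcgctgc
Sdf2l1, chr16:17132384-17132633, minus strand: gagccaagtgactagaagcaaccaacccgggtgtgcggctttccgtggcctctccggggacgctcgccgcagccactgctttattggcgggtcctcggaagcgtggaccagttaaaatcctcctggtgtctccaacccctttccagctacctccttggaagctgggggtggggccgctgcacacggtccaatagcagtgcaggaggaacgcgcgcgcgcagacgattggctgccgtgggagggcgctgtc
Pdia5, chr16:35490874-35491123, minus strand: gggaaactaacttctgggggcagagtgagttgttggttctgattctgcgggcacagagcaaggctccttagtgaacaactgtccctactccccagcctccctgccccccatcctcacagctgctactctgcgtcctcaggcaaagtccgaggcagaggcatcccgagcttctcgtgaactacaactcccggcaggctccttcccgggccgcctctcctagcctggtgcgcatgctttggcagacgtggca

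Values are FPKM, fragments scaled to exon length and to the library's assigned reads, as found from the files, and the libraries held between 15044778 and 18341370 assigned reads. Of 12 endothelial markers, 0 reached 1 FPKM in 3 libraries. Pecam1 (the adhesion molecule CD31) had 0 to 3 reads per library, Cdh5 (VE-cadherin) had 0 or 1, and Tie1, Emcn, Erg and Cldn5 had 0 in all 6 libraries. The collagen gene Col1a1 averaged 1319 FPKM, so these cultures held collagen transcripts in abundance. The summed level of 8 fibroblast and mural markers (5 tested) was 1923 to 2069 FPKM in the controls and 1753 to 1826 FPKM with nattokinase. Most of that sum came from the 2 collagen genes, Col1a1 and Col1a2, the latter averaging 517 FPKM. Lum, Rgs5 and Cspg4 had at most 10, 3 and 3 reads in any library and were not tested. Within that list Col1a1 was lower in every nattokinase library, while Pdgfra and Pdgfrb were higher in every one, and limma called 0 of the 5 (3 at an unadjusted p under 0.05; limma-voom called Col1a1, lower). The summed level of 5 lymphatic endothelial markers (2 tested) was 125 to 136 FPKM in the controls and 109.7 to 114.7 FPKM with nattokinase. Prox1, Lyve1 and Ccl21a had 0, and Flt4 averaged 10.95 FPKM with overlapping groups. Pdpn averaged 110.5 FPKM and was lower with nattokinase (limma adjusted p = 0.027). For 7 leukocyte markers (2 tested, with Ptprc at 0) the sums were 6.00 to 7.37 FPKM and 8.04 to 8.34 FPKM. Cd14 had overlapping groups, and Cd68, averaging 1.80 FPKM, was higher with nattokinase (limma adjusted p = 0.0094). The part of these markers in the results on the ER genes was not tested. The 18S-like ribosomal gene CT010467.1 accounted for 1.85% to 2.89% of the reads of a control library and for 0.525% to 0.610% of those of a nattokinase library, and protein-coding genes for 95.4% to 96.7% and 98.3% to 98.4%.

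Most of the ER genes did not differ beyond the test's threshold between nattokinase and control. The stress sensor gene Atf6 rose, and the chaperone genes Hyou1 and Sdf2l1 and the isomerase gene Pdia5 fell. In mean FPKM Atf6 was 24.2% higher with nattokinase, and Hyou1 was at 0.876, Sdf2l1 at 0.839 and Pdia5 at 0.828 of the control mean. Of the 33 members, 32 reached 1 FPKM in 3 or more libraries and were tested. Values were compared as log2(FPKM + 1) with limma over 10913 genes, two-sided, with Benjamini-Hochberg adjustment at 0.05. By this test 1 member rose and 3 fell, 4 of 32 or 12.5%, where 8.85% of all tested genes passed (5.61% higher, 3.24% lower). On simulated data the share of false calls by this test was above the nominal level, which bears most on calls close to 0.05. At an unadjusted p under 0.05 there were 12 members (2 higher, 10 lower), and 22.9% of all tested genes were at that level. These are bulk cultures, in which fewer cells of a kind and less RNA per cell cannot be told apart.

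The members' differences were small and lay mostly below 0. A negative log2 fold change was found for 26 of the 32, against 45.9% of all tested genes, and the median was −0.081, against 0.012 over all tested genes. In 14 members (43.8%) all 3 nattokinase libraries lay below all 3 controls, which held for 11.4% of all tested genes. In 3 members (9.38%), Atf6, Dnajc10 and Dnajc3, they lay above, which held for 17.4%, and in 15 the groups overlapped. In either direction the groups were apart in 28.8% of all tested genes. The members were read in the same libraries, so they are not independent of each other. They were also chosen with earlier results of these data known, so these contrasts are description and no test. The members' median level was 37.7 FPKM, against 8.14 FPKM over all tested genes, so the shares over all tested genes are not matched for level. With a minimum of 5 FPKM, 12.6% of all tested genes passed limma, against 8.85% as reported. Of the 31 members tested with that minimum, 5 fell (4.29% of all tested genes) and Atf6 alone rose (8.31%). As a share of all assigned reads, the 33 members together made up 0.952% ± 0.018 of the control libraries and 0.910% ± 0.013 of the nattokinase libraries (SD, n = 3 each). By library the share was 0.936%, 0.949% and 0.971% in the controls and 0.924%, 0.902% and 0.902% with nattokinase, so the groups did not overlap.

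**Figure D1:**
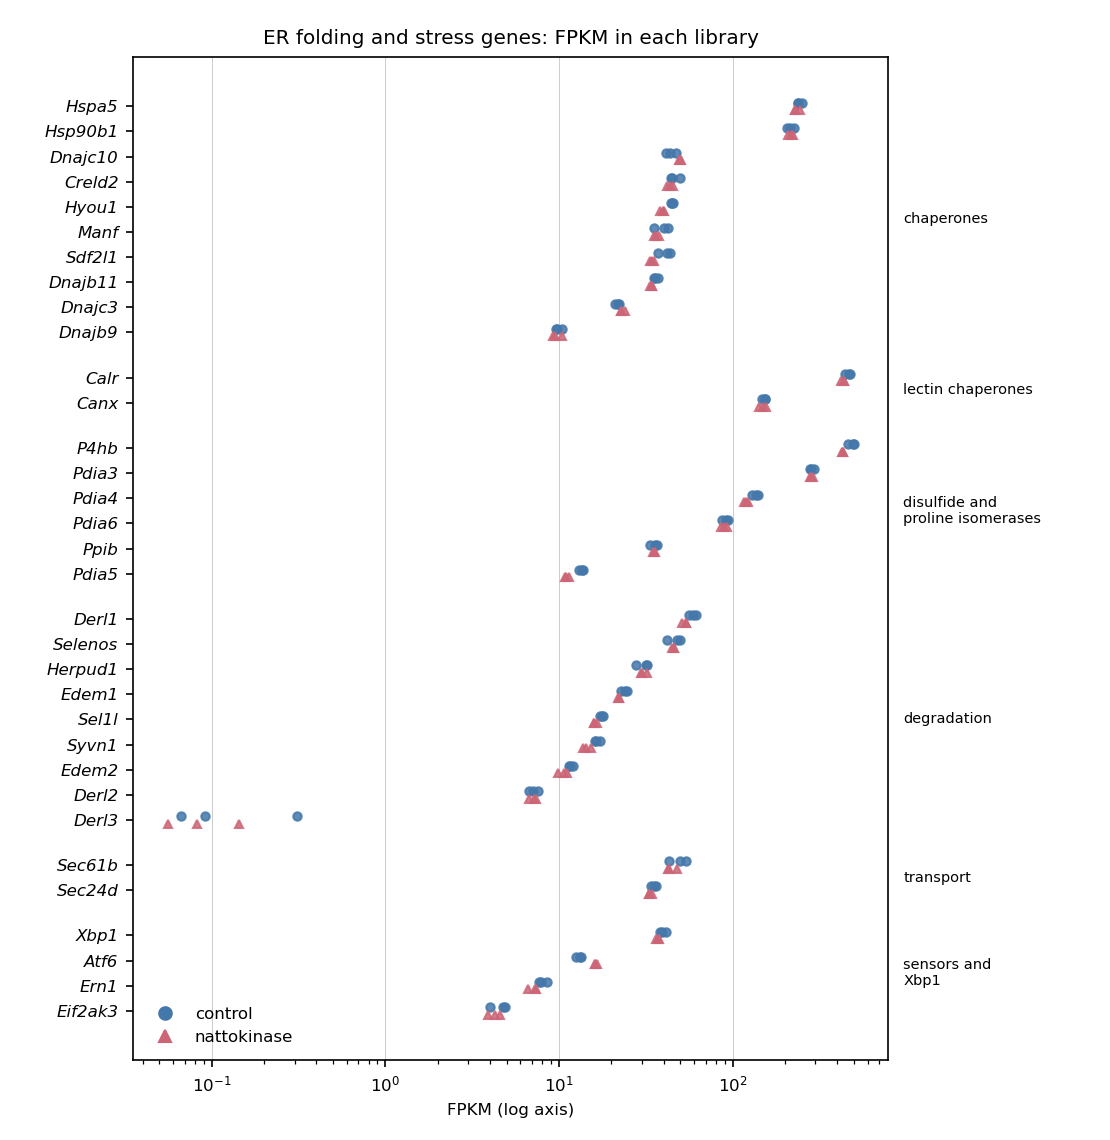
FPKM of the 33 members in each of the 6 libraries on a log axis, grouped by role; circles are control and triangles nattokinase libraries. Levels run from under 1 FPKM for Derl3 to over 400 FPKM for Calr and P4hb, and in most members the groups lie close together.

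The intervals were narrow, but they reflect only the spread among these libraries and leave out the choice of processing. Over the 18 alternatives the log2 fold change ran from −0.093 to −0.020 for Hspa5 and from −0.086 to 0.038 for Herpud1. The 95% interval of the log2 fold change had a half-width of 0.095 to 0.19, with a median of 0.11, and no interval of a tested member reached below −0.38 or above 0.40. The interval lay wholly below 0 for 10 members and wholly above for 2, before any adjustment for the number of genes tested.

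Levels differed between members far more than between groups. FPKM is a level per length, and over all 6 libraries 7 members averaged above 100 FPKM. These were the disulfide isomerase gene P4hb, the calcium-binding lectin gene Calr, Pdia3, Hspa5, Hsp90b1, Canx and Pdia4. The highest tested member, P4hb, averaged 103.7 times the lowest, Eif2ak3 at 4.42 FPKM. Exons of 10 members overlap those of another gene, among them Hsp90b1, Pdia4 and Syvn1, so their reads may be mixed. Such overlap was found for 35.7% of all tested genes and for none of Atf6, Hyou1, Sdf2l1 and Pdia5. Per-length levels are understated for genes whose annotated exons include long or rare segments. The median coefficient of variation between replicates was 4.24% in the controls and 3.07% with nattokinase, and 22 of 32 members varied more among the controls.

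Among the sensors, Atf6 rose and the other genes did not pass the test. Atf6 encodes a membrane-bound transcription factor that is cleaved in the Golgi under ER stress (chromosome 1, 170704674 to 170867771, GRCm38). Its FPKM were 13.3, 12.5 and 13.4 in the controls and 16.04, 16.5 and 16.04 with nattokinase. Every nattokinase library lay above every control, with at least 1735 reads in each library. The means were 13.05 ± 0.48 and 16.2 ± 0.27 FPKM (SD, n = 3), 1.24-fold, with a log2 fold change of 0.29 (SE 0.048, limma adjusted p = 0.0046). Atf6 passed under all 18 alternative settings, among them the omission of each library in turn, with log2 fold changes of 0.26 to 0.31 and adjusted p up to 0.038.

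Ern1, which encodes the sensor and endoribonuclease IRE1, had 8.57, 7.89 and 7.66 FPKM in the controls and 7.41, 6.60 and 7.28 with nattokinase. The nattokinase libraries were the 3 lowest, yet the difference did not pass (log2 fold change −0.16, 95% interval −0.30 to −0.017, limma adjusted p = 0.17). Eif2ak3, which encodes the translation-inhibiting kinase PERK, had 4.78, 4.02 and 4.91 FPKM in the controls and 4.59, 4.29 and 3.92 with nattokinase, and the groups overlapped. Xbp1 had 37.95, 38.96 and 41.2 FPKM in the controls and 37.4, 36.1 and 37.7 with nattokinase. The Xbp1 groups did not overlap, but the difference of −0.085 on the log2 scale did not pass (95% interval −0.19 to 0.02, limma adjusted p = 0.32). Spliced and unspliced Xbp1 mRNA are counted together in these values, and sensor activation by cleavage, splicing or phosphorylation is not measured by them.

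The central chaperones did not pass, and their intervals were narrow. Hspa5 encodes BiP, the ER Hsp70 whose transcript is the usual readout of the unfolded protein response (chromosome 2, 34771970 to 34777547). It had 236, 237 and 251 FPKM in the controls and 243, 230.0 and 228 with nattokinase, and the groups overlapped. The log2 fold change was −0.047 with a 95% interval of −0.16 to 0.066 (limma adjusted p = 0.64). A fall of more than about 0.16 or a rise of more than about 0.066 lies outside that interval. Hsp90b1, which encodes GRP94, had 227, 205 and 215 FPKM in the controls and 223, 216 and 208 with nattokinase (95% interval of the log2 fold change −0.12 to 0.12). Both carry the ERSE matches shown above.

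Hyou1 and Sdf2l1 fell. Hyou1 encodes the large Hsp70-like chaperone GRP170, a nucleotide exchange factor for BiP (chromosome 9, 44379490 to 44392369). It had 44.6, 45.3 and 44.3 FPKM in the controls and 40.2, 37.9 and 39.5 with nattokinase, with no overlap and little spread within either group. The log2 fold change was −0.19 (SE 0.043, limma adjusted p = 0.025). Sdf2l1, an ER-resident partner of the BiP co-chaperones, had 37.3, 43.6 and 41.7 FPKM in the controls and 35.1, 33.6 and 34.2 with nattokinase (chromosome 16, 17130138 to 17132383). Control replicate 1 was the lowest of the Sdf2l1 controls and lay closest to the nattokinase libraries. The log2 fold change was −0.24 (SE 0.059, limma adjusted p = 0.031). Hyou1 passed under 11 and Sdf2l1 under 10 of the 18 alternatives. Hyou1 did not pass when the second or the third library of either group was left out (adjusted p up to 0.12). Sdf2l1 passed without control replicate 1 but did not pass when any other single library was left out (adjusted p from 0.064 to 0.11).

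The J-domain co-chaperones, which direct BiP to its clients, had differences of either sign, and none passed. Dnajc10, which encodes the disulfide reductase ERdj5, had 43.8, 41.1 and 47.3 FPKM in the controls and 50.5, 50.1 and 48.8 with nattokinase. Its nattokinase libraries were all higher, with a log2 fold change of 0.17 (limma adjusted p = 0.085), which passed only when control replicate 3 was left out (0.042). Dnajc3, which encodes the PERK inhibitor p58IPK, had 22.2, 21.02 and 21.98 FPKM in the controls and 24.1, 22.7 and 22.8 with nattokinase (limma adjusted p = 0.29). These groups too were apart, by a small margin. Dnajb11 (ERdj3) had 35.4, 35.7 and 37.02 FPKM in the controls and 33.5, 34.4 and 34.2 with nattokinase, all lower. Its log2 fold change was −0.081 with separated groups, and that of Dnajb9 (ERdj4) was −0.035 with overlapping groups. Manf and Creld2, which encode secreted ER stress-inducible proteins, had −0.10 and −0.082, each with overlapping groups. In Manf, control replicate 1 at 35.1 FPKM lay below all 3 nattokinase libraries while the other controls lay above them, and the difference passed without that library (adjusted p = 0.042).

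**Figure D2:**
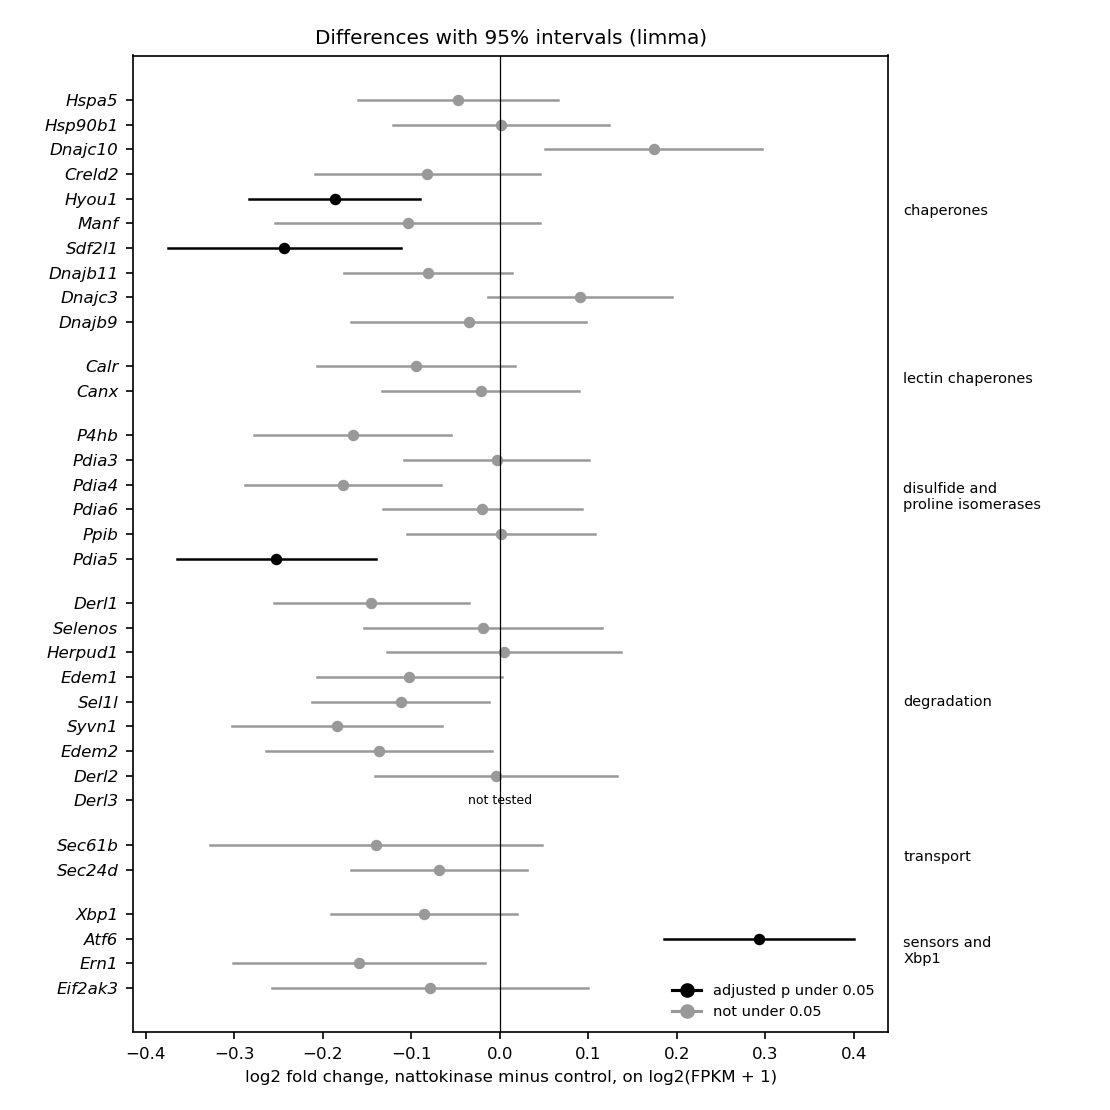
Log2 fold change of each tested member, nattokinase minus control on log2(FPKM + 1), with its 95% interval from limma; black marks an adjusted p under 0.05. Atf6 lies at 0.29 and Pdia5, Sdf2l1 and Hyou1 at −0.25, −0.24 and −0.19, and 20 of 32 intervals include 0.

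The lectin chaperones, which hold newly made glycoproteins, did not pass. Calr (calreticulin) had 446, 468 and 475 FPKM in the controls and 422, 438 and 440.1 with nattokinase. Its groups did not overlap, with a log2 fold change of −0.095 (95% interval −0.21 to 0.017, limma adjusted p = 0.30). Canx (calnexin), its membrane-bound relative, had 153, 147 and 154 FPKM in the controls and 156, 149 and 142 with nattokinase, and its groups overlapped. At an unadjusted p under 0.05 there was 0 of these 2 genes, and limma-voom on the recovered reads called 0.

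Among the disulfide isomerases, which form and rearrange disulfide bonds, Pdia5 fell. It had 13.5, 12.95 and 13.7 FPKM in the controls and 11.02, 11.5 and 10.8 with nattokinase (chromosome 16, 35397312 to 35490873). The nattokinase libraries were all lower, and the log2 fold change was −0.25 (SE 0.050, limma adjusted p = 0.013). It passed under 15 of 18 alternative settings, and the call was lost without control replicate 3 (adjusted p = 0.054), without nattokinase replicate 3 (0.063) and without a filter on low values (0.066). P4hb, which encodes protein disulfide isomerase and the beta subunit of the collagen prolyl 4-hydroxylase, had 464, 498 and 492 FPKM in the controls and 434, 426 and 435 with nattokinase. Pdia4 (ERp72) had 129, 137 and 140.0 FPKM in the controls and 123, 116 and 119.8 with nattokinase. Both had separated groups, with log2 fold changes of −0.17 and −0.18, and stood just outside the threshold (limma adjusted p = 0.072 and 0.057). P4hb passed under 7 and Pdia4 under 8 of the 18 alternatives.

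The other isomerases stayed close to 0. Pdia3, which works with the lectin chaperones, had 284, 278 and 293 FPKM in the controls and 289.7, 280.2 and 283 with nattokinase. Its log2 fold change was −0.0036, with a 95% interval of −0.11 to 0.10. Pdia6 had a 95% interval of −0.13 to 0.093 and the prolyl isomerase gene Ppib of −0.10 to 0.11, with overlapping groups in both. Pdia3 and Pdia5 belong to the same family, and the difference between their responses was not tested.

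Genes of ER-associated degradation, which returns misfolded proteins to the cytosol, did not pass, although 5 of 8 tested members had separated groups on the lower side (11.4% of all tested genes). Syvn1, the ubiquitin ligase HRD1 at the core of this pathway, had 17.2, 16.4 and 16.1 FPKM in the controls and 14.3, 13.8 and 15.3 with nattokinase (log2 fold change −0.18, limma adjusted p = 0.063). Sel1l, its adaptor, had 17.8, 17.7 and 17.2 FPKM in the controls and 15.9, 16.01 and 16.6 with nattokinase. Derl1, a channel component, had 55.7, 61.2 and 59.4 FPKM in the controls and 54.04, 51.3 and 53.7 with nattokinase. For Sel1l and Derl1 the log2 fold changes were −0.11 and −0.15 (limma adjusted p = 0.17 and 0.11). Edem1, which encodes a mannosidase-like protein that marks glycoproteins for degradation, had 24.7, 22.6 and 24.1 FPKM in the controls and 22.3, 22.02 and 21.95 with nattokinase. Its relative Edem2 had 12.04, 11.6 and 11.4 FPKM in the controls and 9.85, 10.7 and 11.2 with nattokinase. In each of these 5 genes every nattokinase library lay below every control. Of the 8, 4 had an unadjusted p under 0.05 (22.9% of all tested genes), and limma-voom called 2, Derl1 and Syvn1, both lower (4.83%).

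Herpud1, a strongly stress-inducible scaffold of the same complex, had 27.9, 31.9 and 31.6 FPKM in the controls and 31.9, 30.1 and 29.6 with nattokinase, and its groups overlapped (95% interval of the log2 fold change −0.13 to 0.14). Derl2 and the selenoprotein gene Selenos also overlapped, at −0.0045 and −0.019. Derl3 lay below the minimum for testing, with 2 to 10 reads in each library and FPKM of 0.310, 0.0667 and 0.0912 in the controls and 0.0556, 0.143 and 0.0821 with nattokinase. At that depth no difference was detectable.

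Of the transport genes, Sec61b, a subunit of the channel through which new proteins enter the ER, had 42.96, 49.8 and 54.2 FPKM in the controls and 47.5, 42.8 and 42.5 with nattokinase. Control replicate 1 lay among the nattokinase libraries, so the groups overlapped. Sec24d, a cargo-binding subunit of the COPII coat, had a log2 fold change of −0.068 (limma adjusted p = 0.40). Neither had an unadjusted p under 0.05, and limma-voom called 0 of the 2.

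The controls differed among themselves in a way that moved with exon length. The deviation of control replicate 1 from the control mean correlated with exon length across the 32 members (Spearman's rho 0.63) and across all 10913 tested genes (0.46). For control replicate 2 these were −0.55 and −0.33, and for control replicate 3 −0.21 and −0.29. Deviations from a mean of 3 libraries sum to 0, so these values are tied to each other. In the nattokinase libraries they lay between −0.045 and 0.090 across the members and between −0.14 and 0.095 across all tested genes. Genes of 1 library share its preparation and are not independent replicates. The 4 tested members with exons under 1500 bases, Sdf2l1, Sec61b, Creld2 and Selenos, stood at 0.874, 0.826, 0.935 and 0.868 of the mean of the other controls. Without control replicate 1, 8 members fell (where 4.45% of all tested genes fell), namely Derl1, Hyou1, Manf, P4hb, Pdia4, Pdia5, Sdf2l1 and Sec61b. With the exon-length trend removed from every library, a choice made after seeing the data, 7 fell (5.06% of all tested genes). Without control replicate 3 (1.93% of all tested genes fell), or without nattokinase replicate 3 (1.82%), 0 fell by limma, with 9 and 10 members lower at an unadjusted p under 0.05. Without control replicate 2 (1.78%) or nattokinase replicate 2 (1.83%) only Pdia5 fell, and without nattokinase replicate 1 (2.36%) Pdia5 and Hyou1 did.

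**Figure D3:**
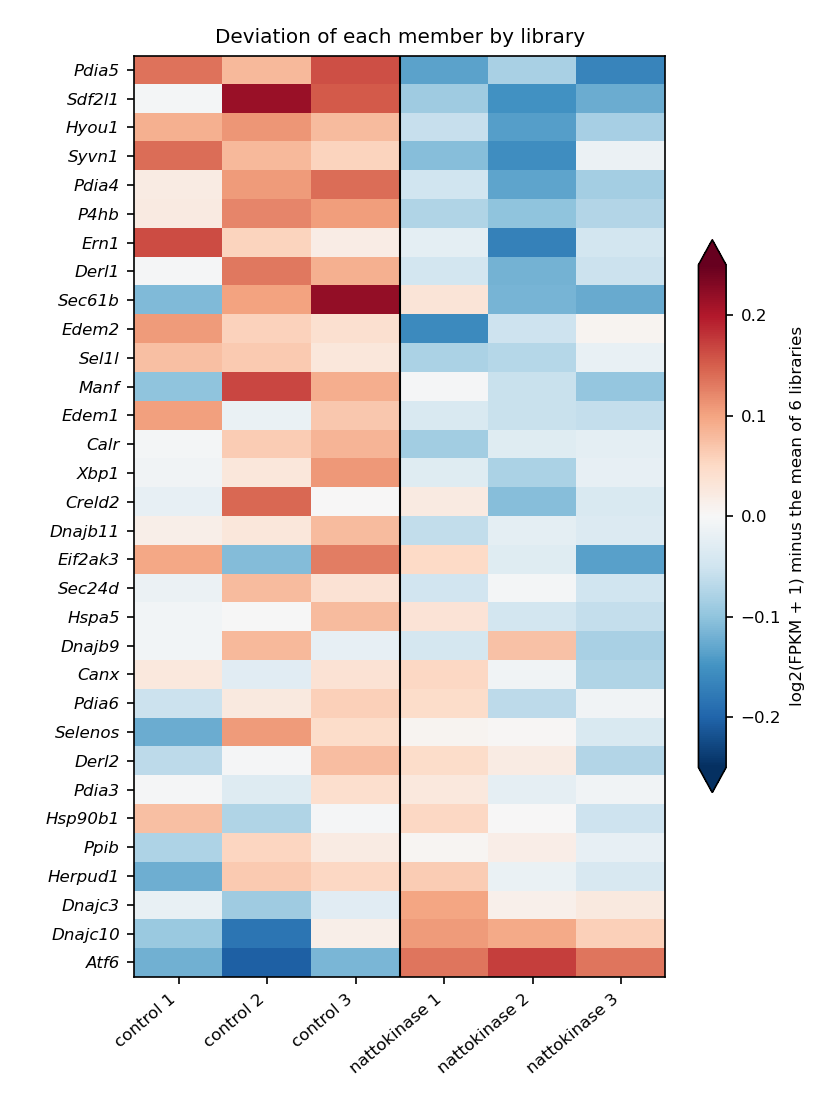
Deviation of each tested member from its mean over the 6 libraries, on log2(FPKM + 1), with members ordered by log2 fold change; red is above and blue below the mean. Pdia5 and Hyou1 are above the mean in all controls and below it in all nattokinase libraries, Atf6 is the reverse, and control 1 is below the other controls for Sec61b, Manf, Selenos and Herpud1.

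Scaling moved the number that fell but not the direction of the set. FPKM is scaled to all assigned reads, so a lower share of CT010467.1 leaves a larger share for the other genes. With FPKM rescaled so that protein-coding genes had the same total in each library, which lowers nattokinase relative to control by 0.035 on the log2 scale, 7 members fell (4.55% of all tested genes) and Atf6 alone rose. The median of the members was then −0.12, and the groups were apart on the lower side in 16 members (16.6% of all tested genes) and on the higher side in 2 (12.6%). Over all genes, rises made up 49.0% of the calls after this rescaling and 63.4% before it. Derl1, Hyou1, P4hb, Pdia4, Pdia5, Sdf2l1 and Syvn1 made up the 7, and limma-voom called these 7 as well (4.83% of all tested genes fell by it).

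**Figure D4:**
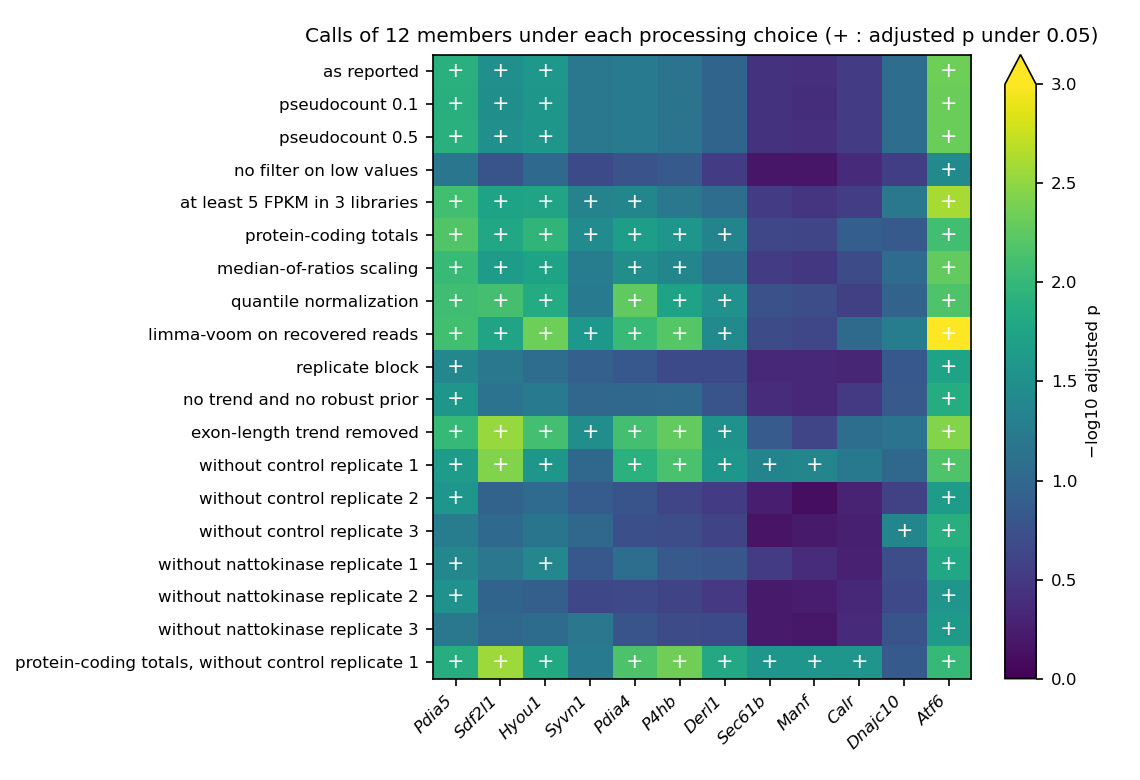
Adjusted p of the 12 members that passed under at least 1 processing choice (columns) in the reported fit and under 18 alternatives (rows), as −log10, with a plus where it is under 0.05. Atf6 carries a plus in every row, Pdia5 in all but 3, and the others come and go.

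The counts of members with an ERSE match that passed are too small to be read against the background. Of the 8 such members that were tested, limma called 0 (8.85% of all tested genes), 1 had an unadjusted p under 0.05 (22.9%), and limma-voom called 1, Syvn1 in both cases. Atf6 and Hyou1, which passed, had no entry in the promoter table and enter no count here. Among the 8 tested members with a match, log2 fold changes ran from −0.18 for Syvn1 to 0.091 for Dnajc3. Their median was −0.034, with 6 of 8 below 0. The 20 tested members with an entry in the table and no match had a median of −0.083, and 2 of them, Sdf2l1 and Pdia5, passed. With 1 mismatch allowed, 13 members with a match were tested and limma called 0 of them, while 3 had an unadjusted p under 0.05 and limma-voom called 2, Pdia4 and Syvn1. The difference between these medians was not tested.

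The ER genes outside the set were read from 7 lists of 164 genes. Of 159 tested, 3 rose and 3 fell, or 3.77%, against 8.85% of all tested genes, and the median log2 fold change was −0.036. As with the members, more lay below 0 than above, 102 against 57 (45.9% of all tested genes were below 0). The groups were apart on the lower side in 26 (11.4% of all tested genes) and on the higher side in 10 (17.4%). Limma-voom called 15 lower (4.83%) and 3 higher (6.28%). The steepest rise was that of Spcs3, a subunit of the signal peptidase that trims new secretory proteins, in the list of translocon and signal peptidase genes (1 of 23 rose, 0 fell). Spcs3 had 74.7, 70.2 and 76.9 FPKM in the controls and 103, 110.1 and 101 with nattokinase, with no overlap (log2 fold change 0.50, SE 0.053, limma adjusted p = 0.00048). Its exons overlap those of Asb5 on the opposite strand, so its reads may be affected by that gene if counting did not use strand.

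Among 34 tested folding enzymes outside the set, 2 rose and 1 fell, or 8.82%, close to the 8.85% of all tested genes that passed. Ppic, a prolyl isomerase gene, had 105, 106 and 111 FPKM in the controls and 124, 126 and 132 with nattokinase (limma adjusted p = 0.011). Tmx3, a membrane-bound disulfide isomerase gene, rose from 7.13 ± 0.38 to 8.76 ± 0.70 FPKM, and Fkbp9, another prolyl isomerase gene, fell from 80.6 ± 2.3 to 71.7 ± 0.90 FPKM (SD, n = 3). Exons of Tmx3 overlap those of AC163277.1 on the same strand, so its reads may be mixed. The Tmx3 call was lost under 8 of the 18 alternatives, as was that of Fkbp9, including the omission of single libraries (adjusted p up to 0.15 and 0.17). The Ppic call was lost under 3, without control replicate 2 or nattokinase replicate 3 and without a filter (adjusted p up to 0.066).

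In the PERK arm, which acts through the factors ATF4 and CHOP, 0 of 12 rose and 1 fell (8.33%, where 8.85% of all tested genes passed). Log2 fold changes were below 0 for 7 and above 0 for 5, with the highest at 0.22. The groups were apart on the higher side in 2 genes (17.4% of all tested genes) and on the lower side in 2 (11.4%). At an unadjusted p under 0.05 there were 4 (22.9%), and limma-voom called 3, Asns, Ddit3 and Trib3, all lower (4.83%). Trib3, a pseudokinase gene downstream of both factors, had 25.3, 29.7 and 26.4 FPKM in the controls and 19.7, 16.6 and 17.9 with nattokinase (log2 fold change −0.56, SE 0.074, limma adjusted p = 0.0017), and it passed under all 18 alternatives. Ddit3, Atf4 and Ppp1r15a are named outside the rule for naming, after their values were seen. Ddit3, which encodes CHOP, had 21.3, 22.2 and 21.5 FPKM in the controls and 20.4, 17.7 and 17.98 with nattokinase, all lower, and did not pass (limma adjusted p = 0.060), although it did under 8 of the 18 alternatives. Its exons overlap those of other genes. Atf4 had 140.0, 158 and 155 FPKM in the controls and 161, 155 and 151 with nattokinase, with overlapping groups, and Ppp1r15a, the eIF2alpha phosphatase subunit GADD34, also overlapped.

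Of 16 other tested stress regulators, 1 fell and 0 rose (6.25%, where 8.85% of all tested genes passed). This was Creb3l2, a membrane-bound factor related to ATF6 in its activation by cleavage, with 36.1, 32.96 and 32.9 FPKM in the controls and 26.6, 29.1 and 28.99 with nattokinase (log2 fold change −0.26, limma adjusted p = 0.017). The call was lost without nattokinase replicate 1 (adjusted p = 0.059) and without a filter on low values (0.11). With the replicate number as a block the adjusted p was 0.0501.

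In 3 lists no gene passed limma. For 24 genes of the COPII coat and ER exit, 6 had an unadjusted p under 0.05 (22.9% of all tested genes). Limma-voom called 4 of them, all lower (4.83% of all tested genes). Their median was −0.069, with 21 below 0. For 26 genes of N-glycosylation these counts were 3 and 2, with a median of −0.054. For 24 other degradation genes they were 2 and 0, with a median of 0.0082.

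**Figure D5:**
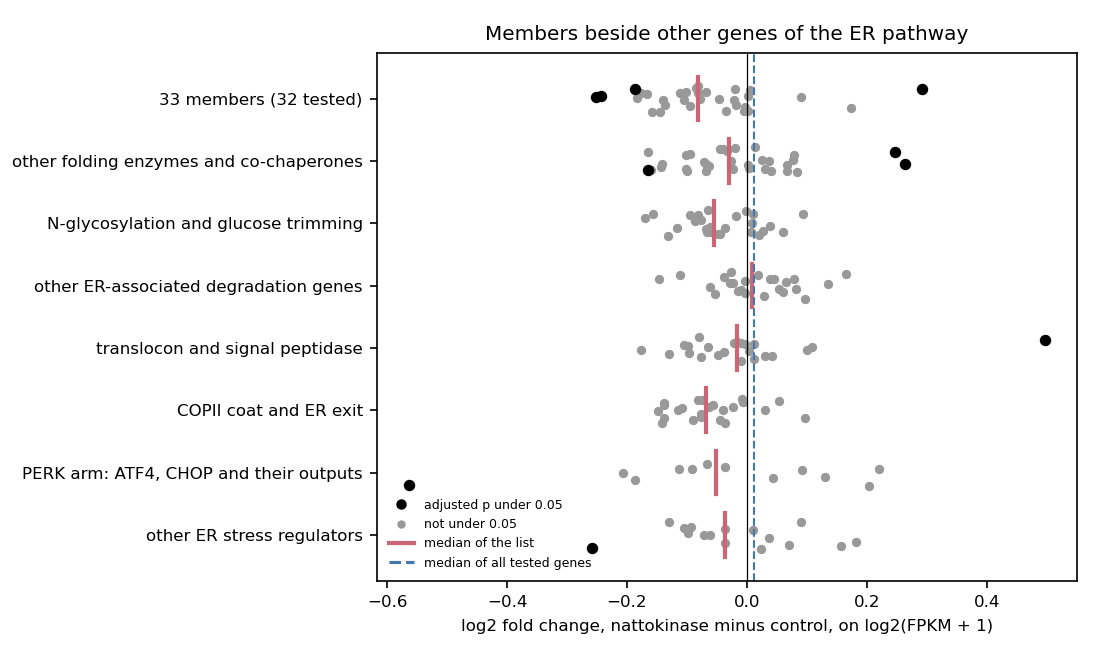
Log2 fold changes of the 32 tested members and of 7 other lists of ER genes, 1 point per gene; black points have an adjusted p under 0.05, red bars are list medians and the dashed line is the median of all tested genes. Spcs3 at 0.50 and Trib3 at −0.56 lie farthest out, and the members' median is the lowest of the 8 lists.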

How the data were processed

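RNA sequencing of 3 control and 3 nattokinase libraries was analysed from 1 file per library with 55536 genes. The values the authors deposited are FPKM, as found from the values: each, multiplied by merged exon length in GENCODE M21 (GRCm38), comes out in whole steps of 1 size in each library (within 0.05 for 100% of values above 0), from which reads were recovered. Per the submitters' processing notes, tools include Trimmomatic 0.38, HISAT2 2.1.0 and featureCounts 1.6.0, with no role given, and a human build, GRCh38, is named although the identifiers are mouse. The sources used here do not say whether counting used strand.

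Genes that reached 1 FPKM in 3 or more libraries were fitted as log2(FPKM + 1) on group with limma 3.58.1 in R 4.3.3 (intensity trend, robust prior). Fold changes on this scale come out smaller for low genes. The script was tested on simulated data, where the share of false calls was above the nominal level. The members and lists were chosen with earlier results of these data known. The text accounts for every member, and takes from each other list up to 3 genes that passed. Alternatives were other pseudocounts, filters and scalings, limma-voom, the replicate block and each library left out. The exon-length trend and 1 combination were added after seeing the data. Correlations of log2 values within groups were 0.992 to 0.995. Exons of 10 members overlap another gene (Hsp90b1, Dnajb9, Manf, Pdia3, Pdia4, Pdia6, Ppib, Syvn1, Derl2 and Eif2ak3). Figures were drawn with matplotlib 3.10.9.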

Additional observations from a re-analysis of the deposited data

How the results depend on the processing

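Over 18 alternatives (16 planned, 2 added after seeing the data) Atf6 was the only member that rose, except that Dnajc10 joined it (2 higher) without control replicate 3. The number that fell, 3 as reported, was 0 without a filter on low values (10 lower at an unadjusted p under 0.05, with 0.444% of all genes tested called lower), 5 at a minimum of 5 FPKM (4.29% of all tested genes fell) or with median-of-ratios scaling (3.53%), 6 with quantile normalization (4.24%), 7 with protein-coding totals, limma-voom or the exon-length trend removed, and 1 without trend and robust prior (2.6%). It lay between 0 and 8 when 1 library was left out, and was 9 with protein-coding totals and without control replicate 1 (6.47%). The numbers of the replicates did not pair the samples: deviations of same-numbered samples correlated at −0.089, −0.044 and −0.059, and no sample correlated best with its own number. With the replicate block 1 member fell (2.28% of all tested genes), Pdia5, and 439 genes rose and 249 fell overall. The median of the members was −0.12 with protein-coding totals, and also −0.12 when control replicate 1 was left out as well. Over all genes 612 rose and 354 fell as reported. Without a filter 221 and 109 did, 552 fell with the exon-length trend removed, and 700 fell with protein-coding totals and without control replicate 1. With 1 library left out, 330 to 726 rose and 193 to 481 fell. Of 32 tested members 20 passed under no setting.

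Sign changes were found only for genes near 0 that passed nowhere. With protein-coding totals, median-of-ratios scaling, quantile normalization and limma-voom in turn, Hsp90b1 had −0.033, −0.010, −0.055 and −0.016, Herpud1 −0.030, −0.0071, −0.023 and −0.013, and Ppib −0.032, −0.0099, −0.026 and −0.016. With the exon-length trend removed Hsp90b1 had −0.011 and Ppib −0.0085. With protein-coding totals and without control replicate 1, Herpud1 had −0.086, Ppib −0.066 and Atf4 −0.042. With 1 library left out the values ran from −0.035 to 0.040 for Hsp90b1, −0.056 to 0.038 for Herpud1, −0.036 to 0.029 for Ppib, −0.011 to 0.076 for Atf4, −0.021 to 0.016 for Pdia3, −0.052 to 0.0083 for Pdia6, −0.039 to 0.033 for Derl2, −0.086 to 0.029 for Selenos, −0.053 to 0.010 for Canx and −0.12 to 0.023 for Ppp1r15a. The cause of these shifts was not tested. For Derl3, 3 reads in a library set the counting limit, and its depth allowed no comparison.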
